A study of Mus musculus with 20 samples.

Results

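The genes described here are 10 genes of the mammalian circadian clock: Arntl (also called Bmal1), Clock, Npas2, Per1, Per2, Per3, Cry1, Nr1d1 (also called Rev-erb alpha), Dbp and Bhlhe41 (also called Dec2). They were taken by symbol from a liver table of 38924 genes, all 10 were listed there, and all 10 were among the 14524 genes that passed the filter on low values. The table came from 20 male mice, 5 livers per group. Wild type (WT) mice were C57BL/6J from a commercial breeder (C57/BL6 in the labels), and TSP-1 null mice were a purchased line that lacks thrombospondin-1 in the whole body, so that no cell type carries the change alone. Mice arrived at 5 weeks of age, were kept for 1 week under a light-dark cycle of 12 hours, and then received control chow or CDAHFD, a high fat diet that lacks choline and takes its protein as defined L-amino acids, for 12 weeks. On control chow the WT group is called NDWT and the TSP-1 null group NDKO. On CDAHFD these are HFWT and HFKO. The sequenced mice were drawn at random from larger cohorts. The time of day at which livers were collected is not given in the sources used here, and each mouse gave 1 liver at 1 time.

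In the clock, ARNTL pairs with CLOCK or NPAS2 and switches on genes whose promoters carry an E-box. Among these targets are the Per and Cry genes, whose proteins return to the nucleus and block the pair that switched them on. NR1D1 is a nuclear receptor that represses Arntl and Npas2, DBP activates genes that carry a D-box, and BHLHE41 and its relative BHLHE40 compete for E-boxes and repress. In mouse liver Arntl and Npas2 peak in a phase opposite to that of Nr1d1 and Dbp, and the levels of most clock genes swing strongly over a day, so a single time point reads both the phase and the height of a rhythm.

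These promoter letters are known inputs of the clock, and the stretches that carried them are shown. RefSeq (GRCm38.p6) gave the 250 bases before a transcription start for 9 of the 10 genes. The search, on both strands, was for the E-box CACGTG, the E'-box CACGTT, the D-box as TTATGTAA or TTACGTAA, and the ROR site as TAGGTCA or TGGGTCA, the type of site NR1D1 also reads. No 2 motifs found overlapped. Capitals mark the motif, and an E'-box on the opposite strand reads AACGTG. Ciart, a repressor of the ARNTL and CLOCK pair from the wider list of clock genes, is shown because it held 3 E-boxes.
Per1, chr11:69098763-69098808, plus strand: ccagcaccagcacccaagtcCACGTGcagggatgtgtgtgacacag
Cry1, chr10:85185089-85185153, minus strand: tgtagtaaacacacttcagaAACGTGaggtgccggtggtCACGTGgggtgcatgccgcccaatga
Bhlhe41, chr6:145865559-145865593, minus strand: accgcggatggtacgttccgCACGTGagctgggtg
Nr1d1, chr11:98775380-98775425, minus strand: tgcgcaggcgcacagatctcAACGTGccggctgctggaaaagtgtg
Per3, chr4:151044796-151044890, minus strand: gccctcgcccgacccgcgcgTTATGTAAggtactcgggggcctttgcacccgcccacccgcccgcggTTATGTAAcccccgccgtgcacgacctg
Ciart, chr3:95882252-95882364, minus strand: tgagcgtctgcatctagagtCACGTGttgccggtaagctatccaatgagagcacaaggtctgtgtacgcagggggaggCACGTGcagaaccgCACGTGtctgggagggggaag

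An E-box thus stood in the windows of Per1, Cry1 and Bhlhe41, an E'-box in those of Cry1 and Nr1d1, and 2 D-boxes in that of Per3. Of 32851 promoters of the same length, 6.02% held the E-box, 3.85% the E'-box, 0.931% a D-box and 5.38% a ROR site. None of these letters stood in the windows of Arntl, Clock, Npas2 and Dbp. The Per1 window shown belongs to a start inside the interval that the table gives for Per1, and the other members' stretches lie upstream of the intervals the table gives. A second window of Per1 held none of these letters. A match describes letters in a window and not a bound site.

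Libraries held about 15640000 to 23280000 fragments assigned to genes, and 3 fragments on a gene of 1 kb correspond to 0.129 to 0.192 FPKM (fragments scaled to the length of the gene and the total of the library). The lowest clock gene reading, Npas2 in NDWT, still rested on 16 to 49 fragments per library. Hepatocyte markers (7 of 7 detected) summed to 33404 to 40862 FPKM in NDWT, 37288 to 44489 in NDKO, 25330 to 36868 in HFWT and 33613 to 44610 in HFKO. The gene for TSP-1, Thbs1, went against the labels on the control diet, at 0.058 to 0.326 FPKM in NDWT and 0.986 to 1.90 FPKM in NDKO, and its ranges overlapped on CDAHFD, at 3.46 to 6.10 in HFWT and 3.05 to 4.40 in HFKO. The genotype directions below therefore refer to libraries labelled WT and labelled TSP-1 null. In HFWT library 5, 3 noncoding genes of the ribosomal RNA type (Gm23935, Gm24270 and Gm26924) took 5.59% of fragments against 0.178% to 1.98% elsewhere. Diet differences of clock genes whose call or sign changes without that library, or whose size changes most, are given with both values.

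Differences are given on the log2(FPKM + 0.1) scale with the standard error (SE) and the false discovery rate (FDR) of limma fitted over all tested genes, and a gene was called at an FDR under 0.05 with a difference above 0.58, a fold of 1.5. One property of the table bears on every diet comparison. The median of all 14524 tested genes was itself 0.53 higher on CDAHFD in WT livers and 0.50 higher in livers labelled TSP-1 null, while it moved by only -0.07 and -0.10 between genotypes. Scaling by the median of ratios, which centers the libraries on the typical gene, took off 0.54 and 0.51 from the diet differences. For the clock genes named at the outset, each diet difference is accordingly also given under that scaling or under quantile normalization. Diet differences of all other genes, and those with a library left out, are as deposited unless a scaling is named. Values as deposited still contain the shift.

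Among the 10 genes, Nr1d1 and Dbp had the highest levels and Npas2 the lowest in each of the 4 groups. Nr1d1 averaged 36.2 to 46.7 FPKM, Dbp 11.1 to 31.7 and Clock 5.81 to 8.44. Per1, Per2, Per3, Arntl, Cry1 and Bhlhe41 averaged between 0.584 and 10.7 FPKM, and Npas2 between 0.302 and 1.06. For 7 of the 10 genes, the 4 groups put in order of their means overlapped with each neighbor in that order. The exceptions were Per1, where HFKO stood clear of HFWT, Per3, where NDKO stood clear of NDWT, and Bhlhe41, where both control groups stood clear of each other and of the CDAHFD groups.

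**Figure D1:**
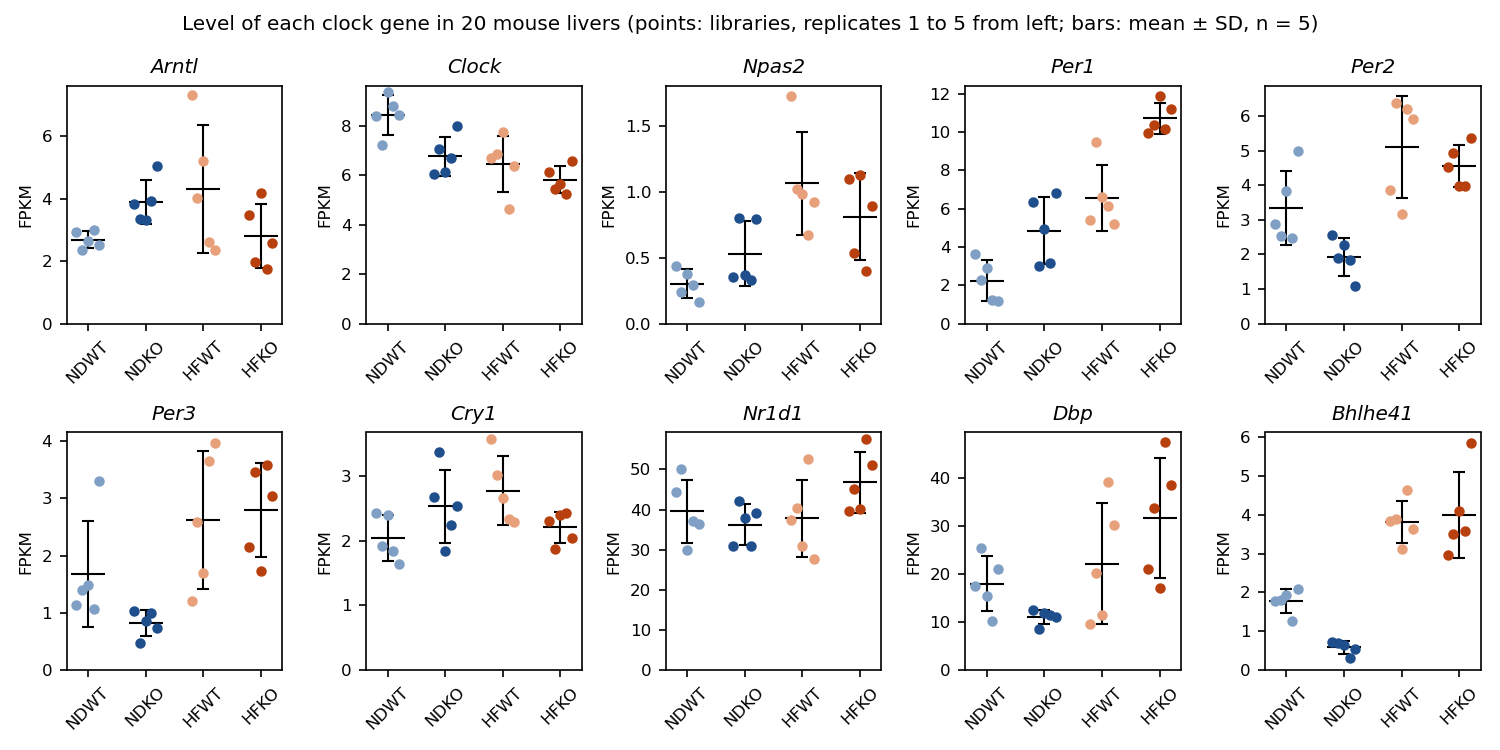
FPKM of each of the 10 clock genes (vertical axes, each from 0) in NDWT, NDKO, HFWT and HFKO, with 1 point per liver and bars for the mean and SD of 5 livers. Bhlhe41 lies between 0.32 and 0.712 FPKM in all 5 NDKO livers and between 1.26 and 2.09 in all 5 NDWT livers, whereas Nr1d1 overlaps in all 4 groups.

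CDAHFD was compared with the control diet in WT livers to see which clock genes moved with the disease diet. Npas2, Per1, Per2 and Bhlhe41 rose and none of the 10 fell, 4 of 10 against a background in which 48.8% of all tested genes were called, 44.1% higher and 4.62% lower. The share is close to the background. Npas2 and Per1 stood above the general shift of all genes, Bhlhe41 did so by less, and Per2 moved with the shift. Groups did not overlap for 3 of the 10 genes (Npas2, Per1 and Bhlhe41), while 56.2% of all tested genes did not overlap.

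Of the activators, Npas2 (ENSMUSG00000026077.9, GRCm38 chromosome 1, 39193731 to 39363234, plus strand), the partner that can stand in for CLOCK, read 0.44, 0.238, 0.375, 0.292 and 0.167 FPKM in NDWT replicates 1 to 5. In HFWT it read 1.72, 1.02, 0.979, 0.67 and 0.918. Every HFWT liver was above every NDWT liver. No NDWT liver reached the filter of 0.5 FPKM, and fewer than 5 of all control diet livers did. The gene thus entered the test through the CDAHFD groups, where its means were higher. The difference was 1.51 (SE 0.30, FDR 0.000178), a 3.51-fold higher mean, and 1.04 under median of ratios scaling (FDR 0.00475). Under quantile normalization it was 0.49 and no longer called (FDR 0.159).

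Arntl (ENSMUSG00000055116.7, chromosome 7, 113207465 to 113314122, plus strand), the obligate activator, read 2.93, 2.35, 2.63, 2.99 and 2.50 FPKM in NDWT and 7.33, 4.04, 5.20, 2.62 and 2.35 in HFWT. The NDWT livers lay close together and the HFWT livers were spread, from below the NDWT median to far above it. The difference of 0.55 (SE 0.26, FDR 0.0638) was not called, was 0.00 under median of ratios scaling and was -0.19 under quantile normalization. It passed without HFWT replicate 5, the library with the high ribosomal share (0.73, FDR 0.0143), and without HFWT replicate 4 (0.69, FDR 0.0253).

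Clock (ENSMUSG00000029238.8, chromosome 5, 76212177 to 76304548, minus strand) averaged 8.44 ± 0.794 FPKM in NDWT and 6.47 ± 1.14 in HFWT (SD, n = 5). Its difference of -0.39 (SE 0.11, FDR 0.00439) had a low FDR and was below the fold threshold as deposited. Set against the typical gene it was -0.95 and called under median of ratios scaling (FDR 3.23e-07), and -0.96 and called under quantile normalization (FDR 5.53e-07).

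Of the repressors, Per1 (ENSMUSG00000020893.11, chromosome 11, 69095217 to 69109960, plus strand), the fast responding Period gene with the E-box shown above, read 3.62, 2.30, 2.89, 1.22 and 1.19 FPKM in NDWT. In HFWT it read 5.40, 9.47, 6.59, 6.16 and 5.21. All 5 HFWT livers exceeded all 5 NDWT livers. The difference was 1.60 (SE 0.28, FDR 3.53e-05) and 1.06 under median of ratios scaling (FDR 0.00204). It was called in all 20 fits that left out 1 library, though those without a TSP-1 null library leave the difference unchanged.

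Bhlhe41 (ENSMUSG00000030256.5, chromosome 6, 145858243 to 145865558, minus strand) read 1.78, 1.80, 1.94, 1.26 and 2.09 FPKM in NDWT and 3.83, 3.88, 3.13, 4.63 and 3.63 in HFWT. The groups were separated by a wide gap. The difference was 1.07 (SE 0.19, FDR 4.62e-05), a 2.16-fold higher mean, but 0.53 and below the fold threshold under median of ratios scaling (FDR 0.0149), and 0.28 under quantile normalization (FDR 0.208).

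Per2 (ENSMUSG00000055866.8, chromosome 1, 91415984 to 91459330, minus strand) read 2.89, 2.54, 3.82, 2.49 and 4.99 FPKM in NDWT and 3.86, 6.39, 3.16, 6.22 and 5.91 in HFWT. The groups overlapped, with 2 HFWT livers inside the NDWT range. The difference of 0.59 (SE 0.23, FDR 0.0272) was just past the fold threshold, and it was 0.05 under median of ratios scaling (FDR 0.878) and -0.11 under quantile normalization. The call was also lost with a pseudocount of 1 (0.49, below the fold threshold) and with no filter on low values (FDR 0.0812). Leaving out 1 library ended the call for 6 of the 20 livers, all 6 in the groups compared, among them HFWT replicate 5 (0.53, FDR 0.0631). The others were NDWT replicates 1, 2 and 4 (0.56, 0.51 and 0.50) and HFWT replicates 2 and 4 (0.50 and 0.51).

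The other 4 genes were not called in WT livers. Per3, a Period gene whose window held 2 D-boxes, averaged 1.68 ± 0.924 FPKM in NDWT and 2.62 ± 1.20 in HFWT (difference 0.61, FDR 0.0994, and -0.26 under quantile normalization). Its NDWT mean held 1 liver at 3.30 FPKM, and without it the difference was 0.87 (FDR 0.0150). It also passed without HFWT replicate 1 (0.84, FDR 0.0228). Without HFWT replicate 5 the difference of Per3 was 0.43, its lowest with 1 library left out and below the fold threshold. Cry1, whose protein blocks the activators together with the PER proteins, averaged 2.04 ± 0.351 and 2.77 ± 0.535 FPKM (difference 0.42, FDR 0.0174, below the fold threshold, and -0.12 under median of ratios scaling). Nr1d1 averaged 39.5 ± 7.78 and 37.8 ± 9.71 FPKM (difference -0.08, FDR 0.670), and -0.64 and called lower under median of ratios scaling (FDR 0.00160). Without HFWT replicate 5 its difference as deposited was 0.02. Dbp averaged 18.0 ± 5.74 and 22.2 ± 12.6 FPKM (difference 0.16, FDR 0.678, and -0.39 under median of ratios scaling), and without HFWT replicate 5 its difference as deposited was 0.0017.

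Scaling therefore changed which clock genes were called with diet in WT livers. As deposited, 4 genes were higher and 0 lower, and under median of ratios scaling 2 were higher (Npas2 and Per1) and 2 lower (Clock and Nr1d1), where 22.7% of all tested genes were called higher and 15.4% lower on that scale. The median difference of the 10 genes was 0.57, against 0.53 for all tested genes.

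In livers labelled TSP-1 null, CDAHFD was compared with the control diet in the same way. Bhlhe41, Dbp, Per1, Per2 and Per3 rose and none fell, 5 of 10 where 45.9% of all tested genes were called, 41.9% higher and 4% lower. These 5 were also the genes whose groups did not overlap, while 57.8% of all tested genes did not. Bhlhe41 rose most of the 10, and the activators Arntl and Clock had differences below 0.

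Bhlhe41 read 0.712, 0.703, 0.649, 0.32 and 0.537 FPKM in NDKO and 2.96, 3.50, 4.09, 3.58 and 5.84 in HFKO. Even the lowest HFKO liver was several times the highest NDKO liver. The difference was 2.58 (SE 0.19, FDR 6.42e-10), a 6.84-fold higher mean, 2.09 above the median of all tested genes, and 2.10 under median of ratios scaling (FDR 8.15e-09).

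Dbp (ENSMUSG00000059824.4, chromosome 7, 45705088 to 45710155, plus strand), the clock output factor that binds D-boxes, read 12.6, 8.59, 11.9, 11.5 and 11.0 FPKM in NDKO and 21.2, 33.8, 17.1, 47.6 and 38.6 in HFKO. The NDKO livers were tightly grouped, and the HFKO livers all lay above them over a wide range. The difference was 1.42 (SE 0.35, FDR 0.00116) and 0.88 under median of ratios scaling (FDR 0.0372). Exons of Dbp share 18.0% of their bases with Sphk2 on the opposite strand, and those of Nr1d1 share 8.55% with Thra, also on the opposite strand. Strand-aware counting is not stated in the sources used here, so fragments in such stretches cannot be assigned with certainty.

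All 3 Period genes rose in the livers labelled TSP-1 null. Per3 (ENSMUSG00000028957.6, chromosome 4, 151003652 to 151044665, minus strand) read 1.03, 0.476, 0.863, 0.99 and 0.736 FPKM in NDKO and 2.15, 3.45, 1.72, 3.59 and 3.04 in HFKO. Its difference was 1.64 (SE 0.32, FDR 0.000163), and 1.15 under median of ratios scaling (FDR 0.00615). Every HFKO liver was above every NDKO liver.

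Per2 read 2.57, 1.89, 2.26, 1.84 and 1.08 FPKM in NDKO and 4.54, 4.93, 3.99, 3.99 and 5.38 in HFKO, again without overlap. The difference was 1.24 (SE 0.23, FDR 8.57e-05), 0.73 under median of ratios scaling (FDR 0.0118), and 0.53 and not called under quantile normalization (FDR 0.0592). Per1 read 6.38, 3.02, 4.93, 3.14 and 6.83 FPKM in NDKO and 9.97, 10.4, 11.9, 10.2 and 11.2 in HFKO. The HFKO livers were the highest and the most alike of all groups for this gene. The difference was 1.20 (SE 0.28, FDR 0.000686) and 0.67 under median of ratios scaling (FDR 0.0367).

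Arntl read 3.82, 3.37, 3.33, 3.92 and 5.04 FPKM in NDKO and 3.49, 1.98, 4.17, 1.76 and 2.58 in HFKO. The 3 lowest HFKO livers were below all NDKO livers and the other 2 were within their range. The difference of -0.52 (SE 0.26, FDR 0.0793) was not called as deposited, and it was -1.04 and called lower under median of ratios scaling (FDR 0.00116). It also passed without HFKO replicate 3 (-0.68, FDR 0.0266). Clock had a difference of -0.22 (FDR 0.0971) and Cry1 of -0.17 (FDR 0.320), and under median of ratios scaling both were called lower (-0.74, FDR 7.99e-06, and -0.68, FDR 0.000301). Npas2 had a difference of 0.53 (FDR 0.125, and -0.36 under quantile normalization), and Nr1d1 of 0.36 (FDR 0.0525, and -0.17 under median of ratios scaling). Npas2 passed without HFKO replicate 4 (0.72, FDR 0.0397).

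Under median of ratios scaling the count in the livers labelled TSP-1 null became 5 higher and 3 lower, where 22.2% of all tested genes were called higher and 13.6% lower. The genes higher on both scales were the 3 Period genes, Dbp and Bhlhe41, and those called lower only after scaling were Arntl, Clock and Cry1. The median difference of the 10 genes was 0.87 as deposited, against 0.50 for all tested genes.

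**Figure D2:**
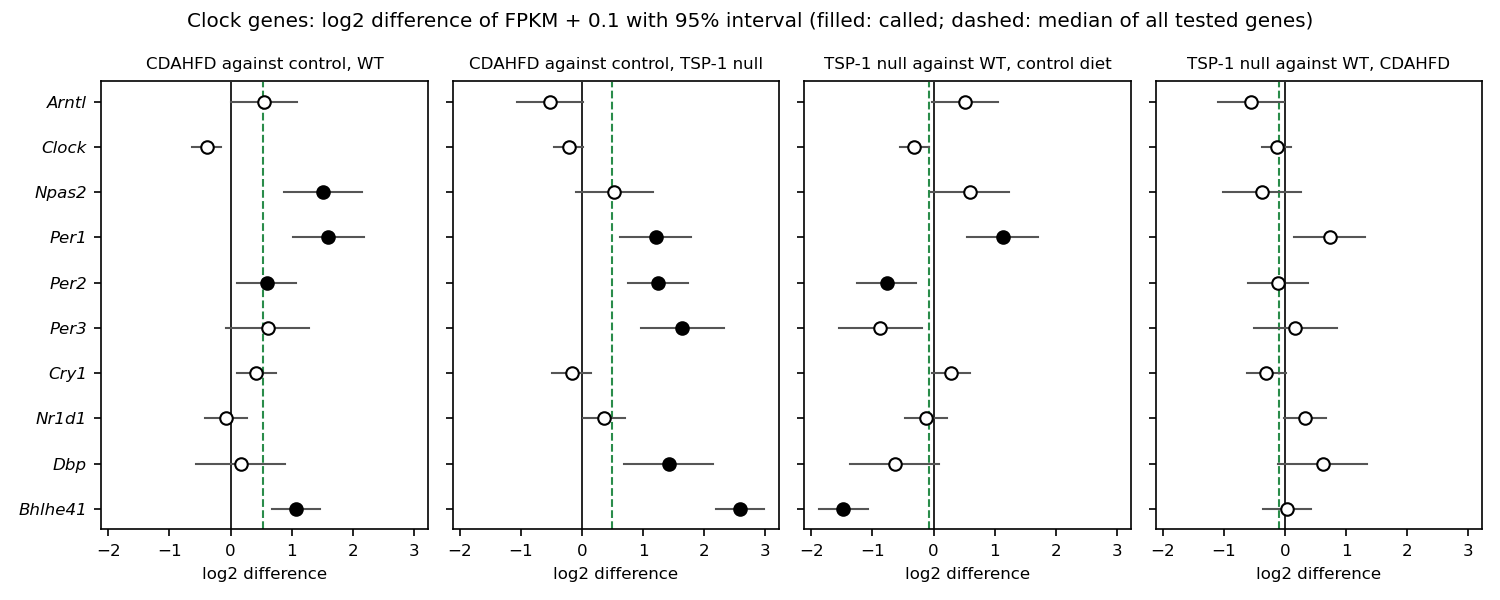
Log2 difference of FPKM + 0.1 (horizontal axis) for the 10 clock genes in the 4 comparisons, with 95% intervals, filled points for called genes, a solid line at 0 and a dashed line at the median of all tested genes. The diet panels are centered near 0.5 for the typical gene, and Bhlhe41 stands at 1.07 in WT and 2.58 in TSP-1 null livers.

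The livers hold other cell types than hepatocytes, and their markers moved with diet beside these results. Macrophage markers (7 of 7 detected) summed to 171 to 291 FPKM over the control diet libraries and 615 to 1367 over the CDAHFD libraries. They did not all move alike, since Clec4f was called lower with CDAHFD in both genotypes. Of the 7, 5 were called higher in WT livers and 6 in those labelled TSP-1 null, where 44.1% and 41.9% of all tested genes were. Stellate cell and myofibroblast markers (6 of 6) summed to 9.34 to 13.1 and 63.0 to 136 FPKM, and cholangiocyte markers (4 of 4) to 2.05 to 3.85 and 17.7 to 45.6. T cell markers (5 of 5) ran from 0.722 to 3.64 on the control diet and from 2.98 to 14.4 FPKM on CDAHFD, and B cell markers (4 of 4) from 0.814 to 5.04 and from 5.25 to 10.2. Endothelial markers (5 of 5) ran from 33.7 to 44.6 and from 38.3 to 66.9 FPKM. Of the 7 hepatocyte markers, 2 were called lower with CDAHFD in WT livers (Serpina1c and Tat). In livers labelled TSP-1 null 3 were (Cps1, Serpina1c and Tat), where 4.62% and 4% of all tested genes were lower. Under median of ratios scaling 7 and 5 were lower (15.4% and 13.6% of all tested genes), and none was higher on either scale. No marker was at 0 in every library of a group, and the part of these cell types in the diet results was not tested. In whole liver, fewer cells of a type and less RNA per cell cannot be told apart.

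Libraries labelled TSP-1 null were compared with those labelled WT on the control diet. Per1 was higher, Bhlhe41 and Per2 were lower, and 7 of the 10 genes were not called, where 4.77% of all tested genes were called (1.74% higher and 3.03% lower). Bhlhe41, Per3 and Arntl did not overlap between the groups, 3 of 10 genes where 9.03% of all tested genes did not.

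Bhlhe41 had the firmest of these differences. Its mean was 1.77 ± 0.314 FPKM in NDWT and 0.584 ± 0.163 in NDKO (SD, n = 5), 3.03 times as high in NDWT, from 135 to 261 fragments per NDWT library and 32 to 100 per NDKO library. The difference was -1.47 (SE 0.19, FDR 8.05e-05), and it was -1.43 under median of ratios scaling. It was called in all 20 fits that left out 1 library, though those without a CDAHFD library leave the difference unchanged. Of its exonic bases, 19.0% are shared with Gm43909, an annotated gene on the opposite strand.

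Per1 averaged 2.24 ± 1.06 FPKM in NDWT and 4.86 ± 1.77 in NDKO, and 2 NDKO livers lay within the NDWT range. The difference was 1.13 (SE 0.28, FDR 0.0107) and 1.21 under median of ratios scaling (FDR 0.00651). With only the control diet groups in the fit, the FDR was 0.0726 and the call was lost. Per2 moved the other way, at 3.35 ± 1.06 FPKM in NDWT and 1.93 ± 0.560 in NDKO. Its difference of -0.77 (SE 0.23, FDR 0.0345) was not called under median of ratios scaling (-0.70, FDR 0.0594), under quantile normalization (-0.64, FDR 0.0978), with a pseudocount of 1 (-0.56, below the fold threshold), with no filter on low values (FDR 0.122), with only the control diet groups (FDR 0.0841), or without any 1 of NDWT replicates 3 and 5 (-0.71 and -0.61) and NDKO replicates 2, 4 and 5 (-0.77, -0.76 and -0.58).

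Among the genes not called, Per3 averaged 1.68 ± 0.924 FPKM in NDWT and 0.820 ± 0.225 in NDKO (difference -0.87, SE 0.32, FDR 0.0848). Arntl averaged 2.68 ± 0.274 and 3.90 ± 0.693 (difference 0.51, FDR 0.209), and every NDKO liver was above every NDWT liver. Differences of the other 5 genes ran from -0.64 for Dbp (FDR 0.247) and -0.31 for Clock (FDR 0.0751) to 0.60 for Npas2 (FDR 0.209), with Nr1d1 at -0.12 and Cry1 at 0.29.

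On CDAHFD no clock gene was called between the labelled genotypes by limma, where 0.496% of all tested genes were (0.165% higher and 0.33% lower). At an unadjusted p under 0.05, 2 genes passed, Per1 and Arntl, and none of the 10 was called under any of the alternatives of scaling, filter, pseudocount or left-out library. Per1 averaged 6.56 ± 1.72 FPKM in HFWT and 10.7 ± 0.802 in HFKO, and all 5 HFKO livers were above all 5 HFWT livers, as was so for 4.98% of all tested genes in either direction. Its difference was 0.73 (SE 0.28, FDR 0.185, 95% interval 0.15 to 1.31). Bhlhe41, so far apart on the control diet, averaged 3.82 ± 0.541 and 3.99 ± 1.11 FPKM (difference 0.04, 95% interval -0.36 to 0.43).

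The difference of the differences was called for 1 of the 10 genes, where 0.647% of all tested genes (94) were called, 0.337% with a positive and 0.31% with a negative value. For Bhlhe41 the diet difference was larger by 1.51 in the libraries labelled TSP-1 null than in those labelled WT (SE 0.27, FDR 0.0146, 95% interval 0.95 to 2.07). It was 1.56 under median of ratios scaling (FDR 0.00757) and was called without any 1 library, but the FDR was 0.0534 with no filter on low values. Both CDAHFD groups had like levels of Bhlhe41, and the gap lay between the control diet groups. The interaction was 1.25 for Dbp (FDR 0.223), 1.03 for Per3 (FDR 0.287), -1.07 for Arntl (FDR 0.166) and -0.98 for Npas2 (FDR 0.279), none of them called.

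Taken over all 20 livers, several clock genes deviated from their group means together. Deviations of log2(FPKM + 0.1) from the group means were correlated over all 20 livers, as a description. Arntl and Dbp ran opposite (r = -0.85), as did Arntl and Per3 (-0.74) and Npas2 and Per3 (-0.78). Arntl and Npas2 ran together (0.69), as did Dbp and Per3 (0.82), and Clock went with Arntl (0.54) and against Dbp (-0.60). Per1 stood outside this pattern, with r between -0.12 and 0.28 for the other 9 genes. Nr1d1 and Bhlhe41 were also weakly tied to Arntl (-0.26 and -0.20) and Npas2 (-0.12 and 0.07). Their largest values were -0.47 for Nr1d1 and Clock and 0.48 for Bhlhe41 and Per2. Within the CDAHFD livers alone, deviations of Arntl and Dbp had r = -0.95 and those of Arntl and Npas2 0.87. Within the control diet livers these were -0.32 and 0.42, so for these pairs the values over 20 livers rest mostly on CDAHFD livers. All values of a pair come from the same library, so they share its depth and its composition.

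**Figure D3:**
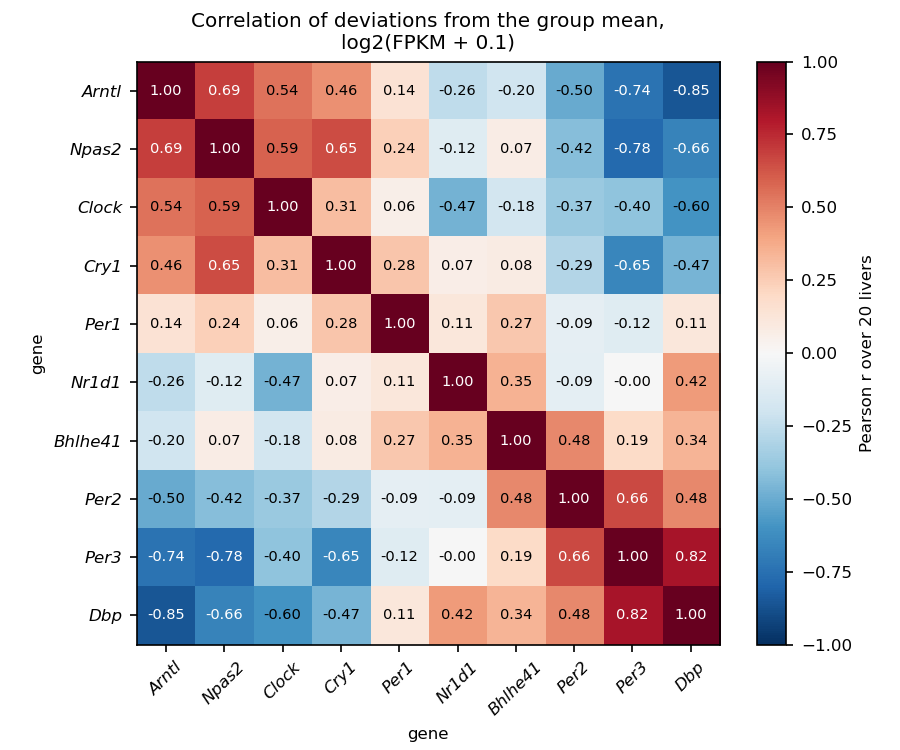
Pearson r (color and number) between the 10 clock genes, computed from deviations of log2(FPKM + 0.1) from the group means over 20 livers. Arntl, Npas2, Clock and Cry1 form a block of positive values that is opposite in sign to Per3 and Dbp, with r = -0.85 for Arntl and Dbp. For that pair r was -0.95 within the CDAHFD livers and -0.32 within the control diet livers.

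The relation of Arntl to its target Dbp, its partner Npas2 and its repressor Nr1d1 was examined over the 10 livers of each diet, 6 relations in all, by permutation tests with Benjamini-Hochberg adjustment. On CDAHFD, Arntl and Dbp had r = -0.96 (permutation p = 8e-05, adjusted 0.00048) and rho = -0.89 (permutation p = 0.00118, adjusted 0.00630). Livers with the most Arntl had the least Dbp, from HFWT replicate 1 at 7.33 and 9.52 FPKM to HFKO replicate 4 at 1.76 and 47.6 FPKM. Without the 2 livers farthest from the median of Arntl r was -0.90 (permutation p = 0.00443, adjusted 0.0133) and rho was -0.79 (permutation p = 0.0286, adjusted 0.0859), which no longer passed. With group means taken off r was -0.95 and rho was -0.95.

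Arntl and Npas2 on CDAHFD had r = 0.89 (permutation p = 0.00052, adjusted 0.00156) and rho = 0.87 (permutation p = 0.00210, adjusted 0.00630), with r = 0.88 without the 2 farthest livers and 0.87 with group means taken off. Arntl and Nr1d1 had r = -0.48 (permutation p = 0.161, adjusted 0.193) and rho = -0.54 (permutation p = 0.115, adjusted 0.171). On the control diet, Arntl and Dbp had r = -0.70 (permutation p = 0.0240, adjusted 0.0480) and rho = -0.73 (permutation p = 0.0200, adjusted 0.0400). Without the 2 farthest livers r was -0.65 (permutation p = 0.0813) and rho was -0.67 (permutation p = 0.0827), of about the same size over 8 livers but no longer past the threshold. With group means taken off r was -0.32 (permutation p = 0.356) and rho was -0.38 (permutation p = 0.279). For Arntl and Npas2 on the control diet r was 0.67 (permutation p = 0.0350, adjusted 0.0525) and rho 0.50 (permutation p = 0.143, adjusted 0.171), with r = 0.37 without the 2 farthest livers. For Arntl and Nr1d1 r was -0.28 (permutation p = 0.441, adjusted 0.441), rho was -0.19 (permutation p = 0.609, adjusted 0.609), and r was -0.21 without the 2 farthest livers. The labels give no collection time, batch or date, so these relations could not be recomputed within one.

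**Figure D4:**
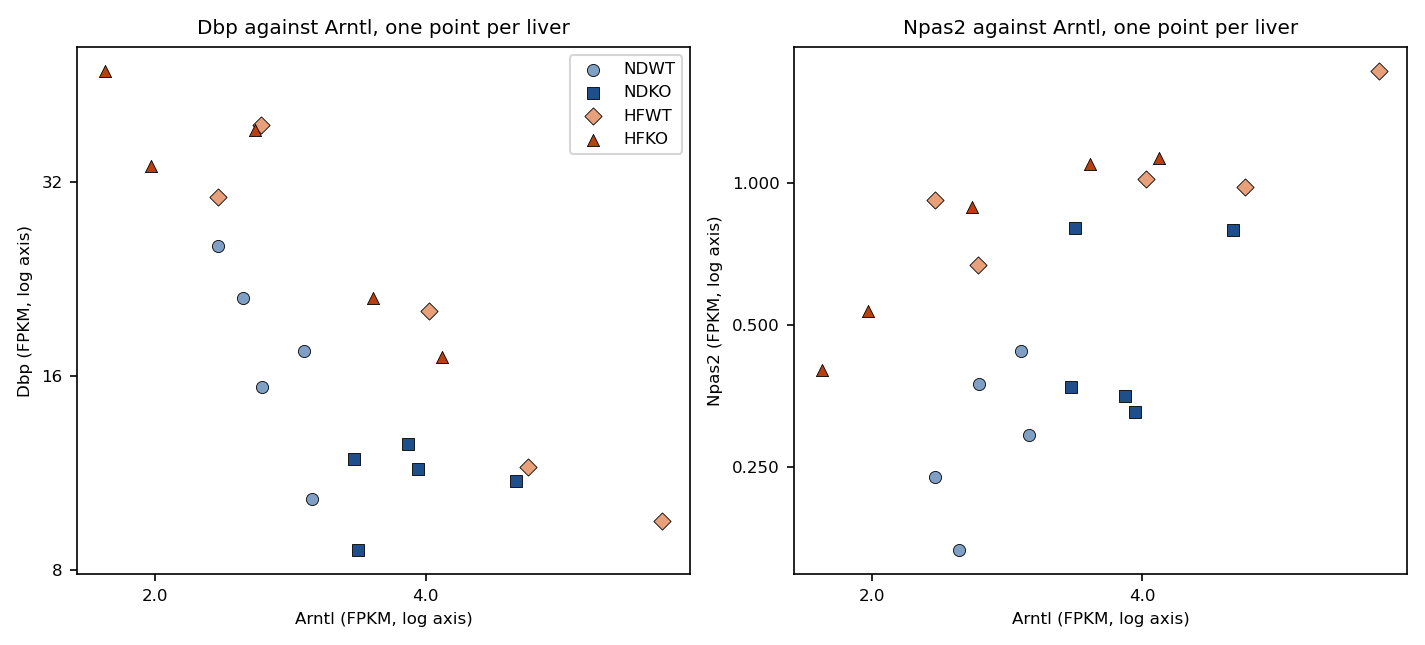
Dbp (left) and Npas2 (right) against Arntl, all in FPKM on log axes, with 1 point per liver and a symbol for each group. The CDAHFD livers fall along a descending line for Dbp, from 47.6 FPKM at 1.76 FPKM of Arntl to 9.52 at 7.33, while the control diet livers cover a shorter range of Arntl.

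The genes outside the 10 whose deviations were most like those of Arntl over the 20 livers were Slc45a3 (r = 0.83), Clpx (0.83), Sphk2 (0.81), Lgalsl (0.80) and Ypel2 (0.80). The most opposite were Tef (-0.82), Nr1d2 (-0.81), Inmt (-0.81), Snora78 (-0.78) and Il15ra (-0.76). Tef encodes a D-box factor of the same family as DBP, and Nr1d2 the second Rev-erb receptor. For Dbp, Tef came first (r = 0.91), followed by Inmt (0.82), Gm11798 (0.80), Snora78 (0.80) and Il15ra (0.79). The most opposite to Dbp were Lgalsl (-0.84), Clpx (-0.84), Slc45a3 (-0.81), Insig2 (-0.77) and Slc30a10 (-0.75). Sphk2 is the opposite-strand neighbor whose exons overlap those of Dbp, and it ranked with Arntl rather than with Dbp.

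Beyond the 10 genes, 16 other genes of the clock loop were all tested. On CDAHFD, 6 rose in WT livers (Arntl2, Bhlhe40, Ciart, Csnk1e, Fbxl21 and Fbxw11) and 2 fell (Hlf and Nfil3), with a median difference of 0.34 against 0.53 for all tested genes, of which 44.1% were called higher and 4.62% lower. In livers labelled TSP-1 null the same 6 genes rose and Nfil3 alone fell, with a median of 0.44 against 0.50 and background shares of 41.9% higher and 4% lower. Under median of ratios scaling the split was 4 higher and 7 lower in WT livers, where 22.7% of all tested genes were higher and 15.4% lower, and 5 higher and 4 lower in the others, where 22.2% were higher and 13.6% lower. Fbxw11, which encodes part of a ligase that acts on PER proteins, moved with the shift of all genes and was not called in either genotype under median of ratios scaling (0.027 and 0.14). In WT livers its difference was below the fold threshold without any 1 of NDWT replicates 2 and 5 and HFWT replicates 1, 2 and 3 (0.53 to 0.57). Bhlhe40 was not called in WT livers under median of ratios scaling (0.35) or quantile normalization (0.57). Fbxl21 read 0.239 to 0.633 FPKM on the control diet. Fewer than 5 of those livers were above the filter of 0.5 FPKM, so that Fbxl21 entered the test through the CDAHFD groups. It was not called in either genotype under quantile normalization (0.09 and 0.26). It was also below the fold threshold with a pseudocount of 1 (0.54 and 0.51). Ciart was not called in WT livers under quantile normalization (0.37, FDR 0.328). Csnk1e, the casein kinase that marks PER proteins for breakdown, stood above that shift, at 1.52 ± 0.116 FPKM in NDWT and 5.21 ± 0.735 in HFWT (difference 1.70, FDR 2.27e-10).

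Nfil3, the repressor that competes with DBP for D-boxes, read 27.4, 18.1, 20.4, 20.3 and 18.6 FPKM in NDWT and 13.6, 7.65, 8.69, 8.17 and 4.85 in HFWT. Every HFWT liver was below every NDWT liver. The difference was -1.33 in WT livers (FDR 5.35e-05) and -1.55 in those labelled TSP-1 null (FDR 1.04e-05). Hlf, another D-box activator, had a difference of -0.77 in WT livers (FDR 4.38e-05), and Ciart, with the 3 E-boxes shown above, one of 2.03 in livers labelled TSP-1 null (FDR 8.81e-06). Arntl2, a paralog of Arntl, averaged 0.116 ± 0.0435 FPKM in NDWT and 0.564 ± 0.105 in HFWT (difference 1.63, FDR 1.63e-05). No control diet liver reached the filter of 0.5 FPKM for Arntl2, so that it entered the test through the CDAHFD groups, and it no longer did so without any 1 of HFWT replicates 3, 4 and 5 and HFKO replicates 3 and 5. Its call was also lost under quantile normalization (0.64, FDR 0.0501) and with a pseudocount of 1 (0.48, below the fold threshold). In livers labelled TSP-1 null the same settings ended its call (0.58, FDR 0.0760, and 0.37).

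Bhlhe40, the close relative of Bhlhe41, followed it across the 4 groups. It read 15.3, 12.3, 18.9, 8.91 and 13.7 FPKM in NDWT and 7.49, 5.61, 7.44, 5.16 and 5.02 in NDKO. It then read 29.4, 24.7, 22.3, 27.5 and 23.1 in HFWT and 25.4, 31.3, 23.1, 31.7 and 31.2 in HFKO. As with Bhlhe41, the lowest group was NDKO, without overlap with NDWT, and the CDAHFD groups overlapped. It was the one gene of the 16 called between genotypes on the control diet (-1.14, SE 0.16, FDR 0.000280), where 4.77% of all tested genes were called, and none was called on CDAHFD by limma. It was also the one called for the interaction (1.30, SE 0.23, FDR 0.0146), but not with no filter on low values (FDR 0.0625). In livers labelled TSP-1 null it rose by 2.21 with diet (SE 0.16, FDR 7.61e-10).

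Of 14 genes that the clock is known to drive in liver, 8 rose and 3 fell with CDAHFD in WT livers, and 6 rose and 3 fell in those labelled TSP-1 null. Of all tested genes, 44.1% were higher and 4.62% lower in the former and 41.9% and 4% in the latter. Their median differences were 0.85 and 0.62. Under median of ratios scaling 4 rose and 4 fell in WT livers, against 22.7% and 15.4% of all tested genes, and 4 rose and 5 fell in the others, against 22.2% and 13.6%. Elovl3, Insig2 and Por were the genes that fell as deposited in both, and Por in WT livers was below the fold threshold without any 1 of NDWT replicate 4 and HFWT replicates 1 and 3 (-0.54, -0.54 and -0.54). Elovl3, a fatty acid elongase, fell most, from 198 ± 52.5 FPKM in NDWT to 13.4 ± 8.69 in HFWT (difference -4.02, FDR 1.80e-09), and its difference was -4.46 in livers labelled TSP-1 null (FDR 5.45e-10). Insig2, which restrains sterol synthesis, fell by 0.70 and by 1.13 (FDR 0.000225 and 8.72e-07). Noct, a clock-driven phosphatase listed under its older symbol Ccrn4l, rose by 1.64 and by 2.43 (FDR 0.000355 and 4.81e-06). In WT livers Noct was not called under quantile normalization (0.75, FDR 0.0672).

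Wee1, a cell cycle kinase under E-box control, had a group order like that of Bhlhe41. It read 1.75, 2.50, 2.69, 1.23 and 5.79 FPKM in NDWT and 0.699, 0.952, 1.05, 1.06 and 1.05 in NDKO, without overlap. It was lower in the libraries labelled TSP-1 null on the control diet by limma (-1.27, FDR 0.00477) and rose with CDAHFD in them by 2.53 (FDR 1.05e-07). Cdkn1a, an inhibitor of the cell cycle, rose with CDAHFD in WT livers by 2.82 (FDR 5.00e-07), and Cyp2a5, a drug oxidase under PAR bZIP factors such as DBP, rose by 2.57 and by 1.76 (FDR 7.64e-09 and 1.36e-06). Nampt, which makes a precursor of NAD, had differences of 0.79 and 0.68 (FDR 9.76e-07 and 6.73e-06), and was not called under median of ratios scaling (0.24 and 0.15).

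Between genotypes on the control diet, 4 of the 14 genes were higher and 1, Wee1, lower in the libraries labelled TSP-1 null, where 1.74% of all tested genes were higher and 3.03% lower. The higher genes were Cyp7a1, the rate-limiting enzyme of bile acid synthesis (2.09, FDR 0.00578), Cdkn1a (1.55, FDR 0.00602), Lpin1, a phosphatidate phosphatase (1.30, FDR 0.000719), and Por, the reductase that serves P450 enzymes (0.81, FDR 0.0142, and 0.0592 with no filter on low values). On CDAHFD, Lpin1 alone was called, at 6.36 ± 0.764 FPKM in HFWT and 12.0 ± 0.785 in HFKO (0.91, FDR 0.0401), where 0.165% of all tested genes were higher. This call was lost without any 1 of 12 libraries, namely all 10 on CDAHFD, NDWT replicate 5 and NDKO replicate 2 (FDR 0.0501 to 0.0916), with no filter on low values (FDR 0.0986) and with eBayes without trend (FDR 0.0509). For the interaction none of the 14 was called by limma as deposited, and under median of ratios scaling Cdkn1a was (-2.04, FDR 0.0393), where 0.565% of all tested genes were called with a positive and 0.392% with a negative value.

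Glucocorticoid hormone also follows the day and acts on Per1, and 8 of its targets were read for that reason. With CDAHFD, Sgk1, a kinase, rose by 1.98 in WT livers and by 1.66 in those labelled TSP-1 null (FDR 3.23e-10 and 4.46e-09). Tat, which breaks down tyrosine, fell by 0.73 and 1.07 (FDR 0.0197 and 0.00136). In WT livers that call was lost without any 1 of NDWT replicates 3 and 4 and HFWT replicate 2 (-0.63, -0.58 and -0.59), under quantile normalization (FDR 0.0563) and with no filter on low values (FDR 0.0652). Tsc22d3, a mediator of the hormone's action on immune cells, rose by 0.70 in WT livers (FDR 0.00854), and Dusp1, a MAP kinase phosphatase, by 0.65 in the others (FDR 0.0263), and neither was called under median of ratios scaling (0.15 and 0.12). The call of Dusp1 was lost without any 1 of NDKO replicates 1 and 5 (0.59 and 0.54) and HFKO replicates 2 and 3 (0.58 and 0.51). In all, 2 of 8 rose and 1 fell in each genotype, with median differences of 0.18 and -0.28, where 44.1% and 41.9% of all tested genes were higher and 4.62% and 4% lower. Under median of ratios scaling 1 rose and 4 fell in WT livers (22.7% and 15.4% of all tested genes), and 1 rose and 6 fell in the others (22.2% and 13.6%).

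On the control diet, 2 of the 8 (3 under median of ratios scaling) were higher in the libraries labelled TSP-1 null and none lower, beside the higher Per1, where 1.74% of all tested genes were higher and 3.03% lower (2.4% and 2.27% under that scaling). Zbtb16, a transcription factor, read 2.47, 2.20, 1.33, 1.07 and 1.08 FPKM in NDWT and 11.8, 12.5, 12.7, 5.55 and 3.43 in NDKO, without overlap (difference 2.34, SE 0.42, FDR 0.00159). Tsc22d3 averaged 8.75 ± 1.26 and 15.9 ± 5.84 FPKM, also without overlap (0.79, SE 0.22, FDR 0.0248). The call of Tsc22d3 was lost without any 1 of NDWT replicate 2 and NDKO replicates 1 and 5 (0.72, 0.64 and 0.67), with only the control diet groups (FDR 0.0532) and with no filter on low values (FDR 0.0937). The median of the 8 genes was 0.48 there against -0.07 for all tested genes, and on CDAHFD none of them was called.

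**Figure D5:**
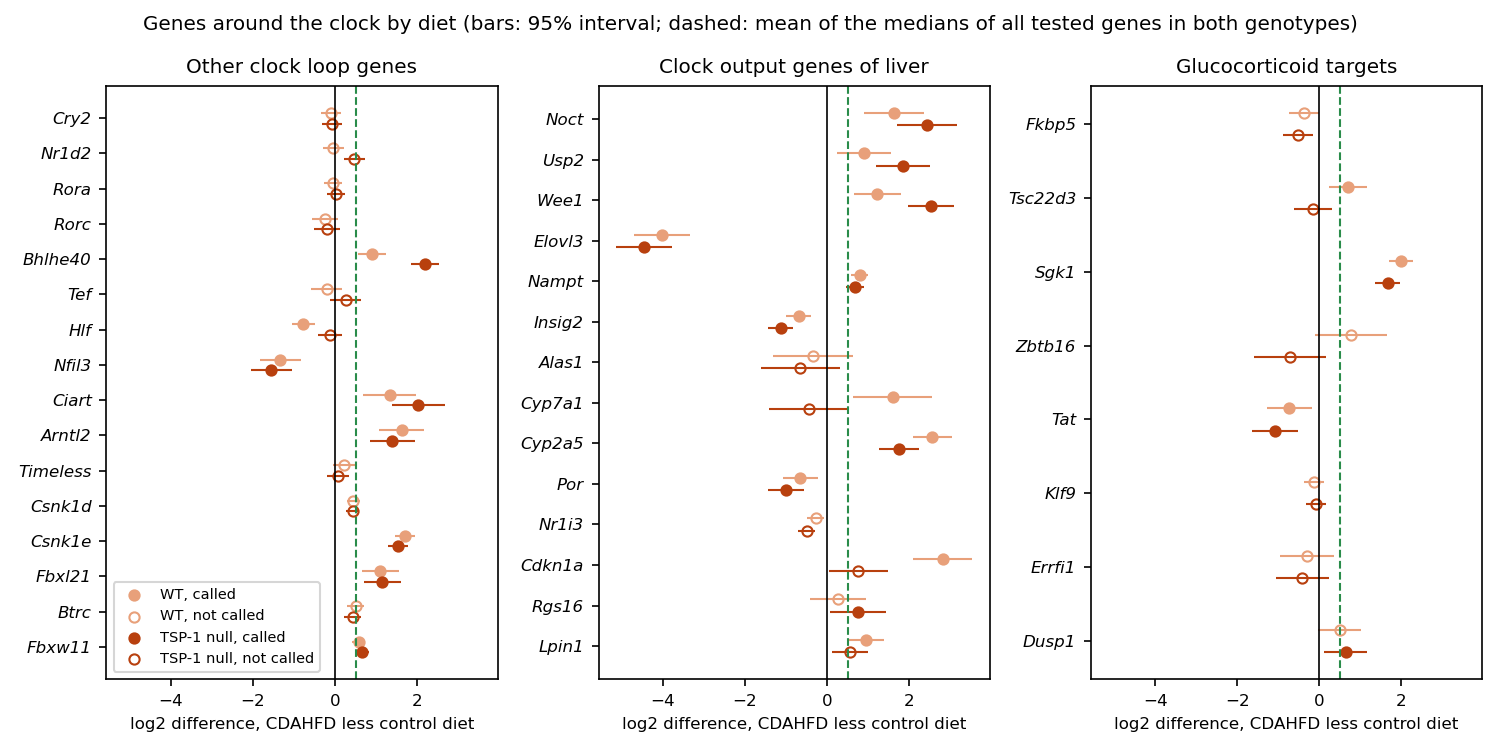
Log2 difference of CDAHFD less control diet (horizontal axes) for 16 other clock loop genes, 14 clock output genes and 8 glucocorticoid targets, in WT (light) and TSP-1 null (dark) livers, with 95% intervals, filled points for called genes and a dashed line at the mean of the medians of all tested genes in both genotypes. Elovl3 lies farthest to the left at -4.02 and -4.46, and Bhlhe40 is at 0.91 in WT and 2.21 in TSP-1 null livers.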

How the data were processed

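Poly(A) RNA of 20 livers was sequenced by the authors on an Illumina HiSeq instrument with a directional kit. For the lobe, the series text names the right medial and the study's methods name the right lateral lobe. The submitters' processing notes name STAR 2.5.2 and featureCounts of Subread 1.5.1, and a human build (GRCh38), whereas the deposited gene identifiers and coordinates are those of mouse GRCm38. The authors deposited FPKM values, with no scaling between libraries, and the gene length. The length is in bases. FPKM values are shares of a library, so a change in abundant genes moves all others. Groups follow the sample labels, and the labels describe separate mice.

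The tests used limma (version 3.58.1, under R 4.3.3), with moderated variances that follow a trend in the mean level, on log2(FPKM + 0.1), with a mean per group over all 20 libraries, for genes above 0.5 FPKM in at least 5 libraries, with two-sided Benjamini-Hochberg FDR over all 14524 genes in each comparison. A pseudocount understates the change of low genes. Correlations used 100000 two-sided permutations in scipy 1.17.1 (Python 3.11.15, numpy 2.4.6). Tables were handled in pandas 2.3.3 and drawn in matplotlib 3.10.9. The fit was tested on simulated data. Fragments per library were recovered as the total that makes FPKM times length whole (100% of checked values within 0.15 in each library) and served only for depth. No library was a copy of another, since the lowest chi-square per degree of freedom was 12.1 among all 190 pairs of libraries. Floors cover counting error only, and no molecular identifiers were used.

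The members and the gene lists were chosen with earlier results of these data known, so counts over them are descriptions. Named genes are the 10 members, at most the 6 called genes of lowest FDR of each list in a diet comparison, every called gene of a list in a genotype comparison or the interaction, and the 5 genes most and least like Arntl and Dbp. Of the list of other clock loop genes, 1 gene is not reported here and enters none of its counts. Other genes of a count are named only to complete it, after their values were seen. Alternatives were pseudocounts of 0.01 and 1, no filter, a filter of 1 FPKM, median of ratios scaling, quantile normalization, only the groups compared, eBayes without trend, a replicate block, no fold threshold, and each library left out. Leaving out a library of a group not compared keeps a difference unchanged and moves only its SE and FDR. Of the identifiers of the 10 genes, all 10 overlapped the same identifier in GENCODE M21.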

Additional observations from a re-analysis of the deposited data

Results flagged for a closer look

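The FPKM of Per3 in NDWT was 3.302 in replicate 5 and at most 1.479 in the other 4 livers, a gap of 0.813 of the group's range, above the 95% limit of 0.71 of Dixon's test for 5 samples. The 10 genes in 4 groups gave 40 groups for this test, and chance flags about 1 group in 20, so a single such liver is within what chance gives. Among the NDWT livers, Wee1 was also highest in that one (5.79 FPKM).

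The effect of diet on Bhlhe41 differed between the labelled genotypes, with an interaction of 1.51 on the log2 scale by limma (SE 0.27, FDR 0.0146). Every CDAHFD liver was above every control diet liver in both genotypes.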

How the results depend on the processing

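Of the alternatives of each gene's difference, 1425 kept direction and call, 26 lost a call, 17 gained one and 17 changed sign. These counts include fits that left out a library of a group not compared, which cannot change a difference. The count of called clock genes with diet in WT livers (4) was 2 under quantile normalization. With diet in livers labelled TSP-1 null (5) it was 8 under median of ratios scaling. Between genotypes on the control diet (3) it was 1 with only the groups compared, and for the interaction (1) it was 0 with no filter on low values.

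Signs turned under median of ratios scaling for Cry1 (-0.12) and Dbp (-0.39) with diet in WT livers and Nr1d1 (-0.17) in those labelled TSP-1 null. They turned under quantile normalization for Arntl (-0.19), Cry1 (-0.41), Dbp (-0.19), Per2 (-0.11) and Per3 (-0.26) with diet in WT livers, Npas2 (-0.36) with diet in livers labelled TSP-1 null, and Per2 (0.0045) between genotypes on CDAHFD. The cause was not tested beyond the shift of all genes that these scalings take off. Pearson's r of Arntl and Dbp on the control diet no longer passed with a pseudocount of 1 (-0.69, where rho still passed), from deviations (-0.32) or without the 2 farthest livers (-0.65). Under median of ratios scaling r of that pair still passed (-0.70) and rho did not (-0.70, permutation test, adjusted 0.0596). For Arntl and Npas2, r passed under median of ratios scaling (0.68) and rho did not.

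With 1 library left out, differences that crossed 0 ran from -0.21 to 0.024 for Nr1d1 and from -0.091 to 0.42 for Dbp with diet in WT livers, and from -0.069 to 0.34 for Per3 and -0.11 to 0.13 for Bhlhe41 between genotypes on CDAHFD.

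Replicate numbers did not pair the livers: the correlation of deviations of same-numbered livers ran from -0.133 to 0.0812 over 30 values (median 0.0202). With the replicate number as a block, the called clock genes were 4 and 5 with diet, 2 and 0 between genotypes and 1 for the interaction, with Per2 between genotypes on the control diet (-0.77) not called (FDR 0.0635).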

Other observations

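The spread between livers of 1 group differed from gene to gene and from group to group. The coefficient of variation of FPKM was 56.8% for Dbp and 47.4% for Arntl in HFWT, against 13.7% for Dbp in NDKO and 10.2% for Arntl in NDWT. For Per1 it was 7.48% in HFKO and 47.0% in NDWT. Clock had the smallest value of the 10 genes in NDWT (9.41%) and NDKO (11.6%), and the smallest but for Per1 in HFKO (9.40%). These values are descriptions of 5 livers each, and the spread was not tested between groups.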
